A study of Mus musculus with 3 samples.

Results

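The genes described here come mostly from families with members that carry water, salt, acid and base across the epithelium of the later collecting duct. They were measured in the ureteric bud before that epithelium differentiates, and many of them are known from other tissues or cells. They were chosen by name, not by signal: aquaporins, the epithelial sodium channel, subunits of the vacuolar proton pump, the SLC4, SLC26 and SLC12 transporter families, and the genes Avpr2, Rhbg, Rhcg, Hsd11b2, Kcnj1, Kcnj10 and Kcnj16. The rule found 70 genes on 74 probe sets, of 19938 genes on the array with a single symbol. Of these 70, 21 encode proton pump subunits and 49 do not; Atp6v0c and Slc4a7 are not analysed here.

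The 3 samples form 1 group of ureteric tip cells from CD-1 mouse embryos at 10.5 dpc (Theiler stage 18) that carry the transgene Tg(Hoxb7-EGFP)33Cos, in which Hoxb7 regulatory sequence marks the nephric duct and bud with green fluorescent protein. Each sample held the sorted cells of 1 bud, without pooling; 1 round of amplification preceded hybridization to an Affymetrix array. No other tissue or stage was measured, so the question open to these data is which transport genes gave signal above background, and how much that signal varied between the buds. Arrays carry the replicate numbers of the labels, which do not say whether the buds came from separate embryos. The p-values thus measure at most the spread between these arrays. For a gene with 1 identical value on all arrays, the p-value measures no spread of that gene between buds.

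The ureteric bud grows out of the nephric duct and branches into the collecting system. In the mature duct, principal cells take up sodium through the channel ENaC under aldosterone and water through aquaporins under vasopressin. Intercalated cells secrete acid or base, using a proton pump in the plasma membrane together with chloride-bicarbonate exchangers. The same kind of pump, the V-ATPase, acidifies lysosomes and other organelles in every cell. It has a membrane sector, V0, that conducts protons and a cytosolic sector, V1, that splits ATP. Several subunits exist in a broadly used form and in forms used by few tissues.

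Signals are log2 values as deposited. A background level was set on each array as the 95th percentile of 1035 olfactory receptor probe sets, genes taken as silent in this tissue, and stood at 5.40, 5.45 and 5.41 log2 on arrays 1, 2 and 3. A gene was called above background where limma's moderated one-sided test of its mean minus that level gave a Benjamini-Hochberg adjusted p under 0.05 over all genes. Of the 70 members, 34 were called (48.6%), against 53.0% of all 19938 genes. That share is near the background share and is no result about the members as a whole. The median signal was 5.48 log2 over the members and 5.64 log2 over all genes. As many as 48 members (68.6%) and 51.7% of all genes held 1 identical value on all 3 arrays, and for these genes the fitted error reflects only how the 3 background levels and limma's prior vary. Signals of different genes come from different probes, so each gene is set against background and not against another gene.

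The labelled tissue was checked with bud markers, of which 12 of 12 were called, among them Ret at 8.69, 8.35 and 8.18 log2 and Gata3 at 9.27, 9.06 and 9.05 on arrays 1, 2 and 3. Among markers of other cells, 8 of 12 endothelial, 5 of 10 erythroid, 3 of 12 leukocyte, 2 of 12 mesenchyme and stroma, 2 of 10 neural and 5 of 10 nephron and podocyte genes were called, beside 53.0% of all genes. The mean endothelial signal was 6.58, 5.78 and 6.99 log2 on arrays 1, 2 and 3 and the mean erythroid signal 6.09, 5.35 and 5.90, so both means were lowest on array 2. Among the erythroid genes only the globins Hba-x, Hbb-y and Hbb-bh1 were lowest there; 5 of the 10 were identical on all arrays, and Gata1 (5.32, 5.32 and 5.30 log2) and Tal1 (6.08, 6.08 and 6.13) were not lowest on array 2. The mean of the bud markers was 8.20, 7.98 and 7.88 log2. These samples are bulk RNA, in which fewer cells of a type and less RNA per cell cannot be told apart.

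Most proton pump genes gave signal above background. Of 21 V-ATPase members 15 were called (71.4%, against 53.0% of all genes), 6 of 8 in V0 and 9 of 13 in V1. Their median was 7.03 log2. Forms were classed by where they are known to be used, and each was set against background: 13 of 13 broadly used subunit forms were called, and 0 of 5 forms known from kidney or intercalated cells. Of the 12 subunits with a measured gene, 12 had at least 1 form above background.

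**Figure D1:**
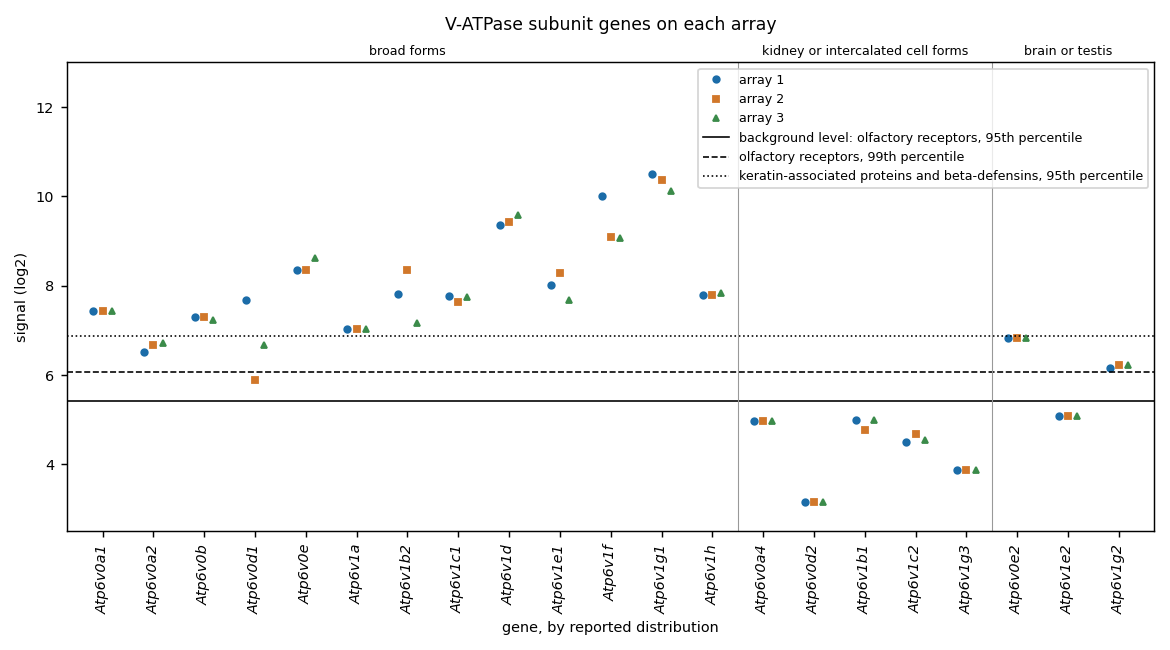
Signal (log2) of each V-ATPase subunit gene on array 1 (circles), array 2 (squares) and array 3 (triangles), with horizontal lines at the mean over arrays of 3 background levels. The 13 broad forms lie above the solid line on every array, while the 5 kidney or intercalated cell forms lie below it on every array.

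The V1 catalytic core binds and splits ATP with its A and B subunits. Atp6v1a, the only A subunit gene, gave 7.03 log2 on all 3 arrays (limma, adjusted p = 2.85e-06). Atp6v1b2, the widely used B subunit, gave 7.82, 8.35 and 7.16 log2 on arrays 1, 2 and 3, which is 2.36 ± 0.24 log2 (limma SE) above background (adjusted p = 0.00104). Its counterpart Atp6v1b1, known from intercalated cells and other proton-secreting epithelia, gave 4.98, 4.78 and 4.98 log2 and lay below the level on every array.

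The stalk and regulatory subunits of V1 gave the same division. Atp6v1c1, the common C subunit, gave 7.78, 7.64 and 7.74 log2, and Atp6v1c2, known from kidney, lung and placenta, 4.51, 4.68 and 4.55. Atp6v1g1, the common G subunit, gave 10.50, 10.38 and 10.13 log2 (limma, adjusted p = 4.28e-06), whereas the intercalated cell form Atp6v1g3 stood at 3.88 on all arrays. The form Atp6v1g2, known from brain, was called at 6.16, 6.23 and 6.23 log2, 0.79 above background (limma, adjusted p = 2.22e-05). In the C and G subunits the kidney forms were thus not called, and the brain form of G was. Atp6v1e1 gave 8.01, 8.28 and 7.68 log2, and its testis form Atp6v1e2 5.08 on all arrays, which was not above background. The subunits with a single gene, Atp6v1d, Atp6v1f and Atp6v1h, had means of 9.46, 9.39 and 7.81 log2 and were called.

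In V0, the a subunit anchors the pump and steers it to a membrane. Atp6v0a1 gave 7.43 log2 on all arrays and Atp6v0a2 6.51, 6.68 and 6.72, both called; the 2 probe sets of Atp6v0a2 differed, at 6.12 log2 on all arrays and 7.15 on average. Not called was Atp6v0a4, the form of kidney and inner ear epithelia in which mutations cause distal renal tubular acidosis, at 4.97 on all arrays. Atp6v0d1, the common d subunit, gave 7.69, 5.89 and 6.67 log2, and Atp6v0d2, known from intercalated cells, osteoclasts and macrophages, 3.16 on all arrays. Atp6v0b, a proton-carrying ring subunit, gave 7.31, 7.31 and 7.23 log2, Atp6v0e 8.35, 8.35 and 8.61, and the brain-enriched Atp6v0e2 6.84 on all arrays; each was called.

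Stricter backgrounds left most pump calls in place. With the 99th percentile of olfactory receptors, at which 35.3% of all genes were called, 14 of 21 V-ATPase members were called, without Atp6v0d1 (limma, adjusted p = 0.123). With keratin-associated protein and beta-defensin genes as background, at which 21.1% of all genes were called, 11 were, all of them broad forms. Without any single array the count stayed at 15.

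Stretches from the promoters of pump genes are shown because 4 of the 10 called V-ATPase genes with a RefSeq promoter hold the 7-letter motif TCACGTG (searched on both strands), the heart of the element that the lysosomal regulator TFEB binds. Promoters here run from 250 bases before to 50 after a start, and 53 of the 70 members had one. None of the 5 V-ATPase genes that were not called and had a promoter holds the motif. Over all genes with a promoter it occurs in 7.0% of those called, 3.4% of those not called and 5.4% in all, so none in 5 is no departure from the share in genes not called. Each stretch below is from GRCm38.p6, 5′ to 3′ on the gene's strand, with the motif in capitals.
Atp6v0b (chr4:117887330-117887396, minus strand): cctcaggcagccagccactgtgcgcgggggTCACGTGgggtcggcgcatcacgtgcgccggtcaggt
Atp6v0d1 (chr8:105566032-105566098, minus strand): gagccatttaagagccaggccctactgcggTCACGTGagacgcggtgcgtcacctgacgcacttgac
Atp6v0e (chr17:26676368-26676434, plus strand): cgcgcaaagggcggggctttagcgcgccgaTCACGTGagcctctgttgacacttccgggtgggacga
Atp6v1a (chr16:44139355-44139421, minus strand): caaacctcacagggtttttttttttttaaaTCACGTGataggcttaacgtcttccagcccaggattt
The stretch of Atp6v0b holds a second copy in lower case. Outside the pump the motif occurs in the promoters of Aqp5 and Slc12a7, which were called, and of Aqp6 and Slc26a1, which were not. A match in the letters is a description of these windows; binding was not measured.

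Of the 49 members outside the pump, 19 were called (38.8%, against 53.0% of all genes), and most lay close to the level. Of these 19, 14 lay under 0.5 log2 above the level, against 21.1% of all called genes. Among called pump genes 0 did, so over all 34 called members the share was 41.2%. With the 99th percentile 4 of the 49 were called (Aqp2, Slc12a2, Slc12a9 and Hsd11b2), against 35.3% of all genes. With keratin-associated protein and beta-defensin genes 1 was, Slc12a2, against 21.1% of all genes.

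**Figure D2:**
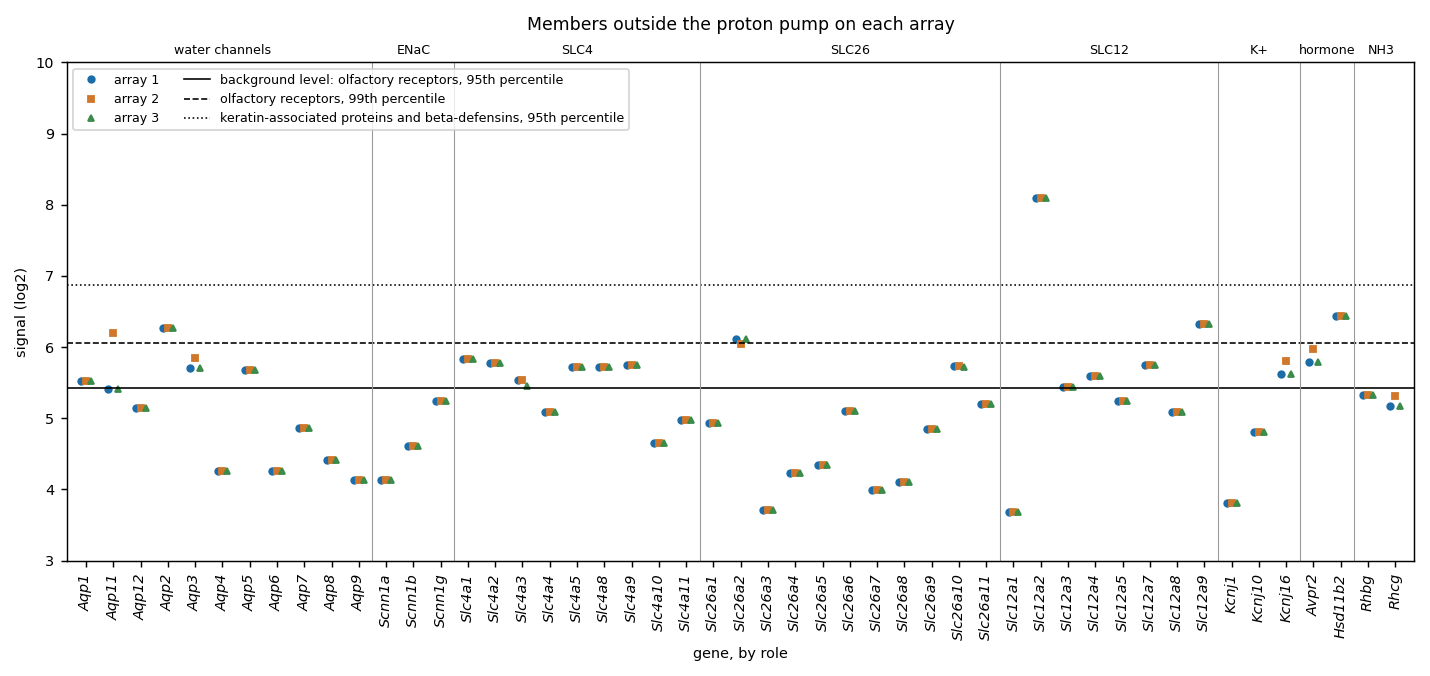
Signal (log2) of each of the 49 members outside the proton pump on array 1 (circles), array 2 (squares) and array 3 (triangles), grouped by role, with horizontal lines at the mean over arrays of 3 background levels. Slc12a2 is the gene above all 3 lines. Aqp2, Slc12a9 and Hsd11b2 lie above the dashed line of the 99th percentile on every array. Slc26a2 lies above the dashed line on arrays 1 and 3 and Aqp11 on array 2, and neither was called at that percentile.

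Water channels were called in 4 of 11 members (36.4%, against 53.0% of all genes). Aqp2, the vasopressin-regulated water channel of the apical membrane of principal cells, gave 6.26 log2 on all 3 arrays (0.84 above background, limma, adjusted p = 1.59e-05). Aqp3, a basolateral channel of the same cells, gave 5.71, 5.85 and 5.71 log2 on arrays 1, 2 and 3 (limma, adjusted p = 0.000577). Aqp5, a channel of secretory glands and airways, gave 5.68 log2 on all arrays and Aqp1, the channel of proximal tubule, red cells and endothelium, 5.52; both were called in the full data. Neither call held when array 1 or array 3 was left out: adjusted p was 0.0576 and 0.457 for Aqp5 and Aqp1 without array 1, and 0.0513 and 0.437 without array 3 (limma). The Aqp1 value was identical on arrays between which mean endothelial and erythroid signals differed as given above; the part of those cells in it was not tested.

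The other 7 water channels were not called. Aqp4, the other basolateral channel of principal cells, gave 4.26 log2 on all arrays, and Aqp6, a channel of intercalated cell vesicles, also 4.26. Aqp11, an intracellular channel whose loss causes cystic kidneys in mice, gave 5.41, 6.20 and 5.41 log2, so its signal stood out on array 2 alone (limma, adjusted p = 0.22). Without array 1 or array 3, fits in which the spread was pooled over genes, it was called (adjusted p = 0.00426 and 0.00349). Aqp7, Aqp8, Aqp9 and Aqp12 lay between 4.13 and 5.14 log2. Aqp2, Aqp5 and Aqp6 are next to each other on the chromosome in the RefSeq table, and Aqp3 is next to Aqp7; in each run the last named was not called.

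The regulators of water and sodium uptake were called in 2 of 2, against 53.0% of all genes, a count too small to set apart from that share. At the 99th percentile 1 of 2 was called, against 35.3% of all genes. With keratin-associated protein and beta-defensin genes 0 of 2 were, against 21.1%. Avpr2, the vasopressin V2 receptor, gave 5.79, 5.97 and 5.79 log2 (0.43 ± 0.04 above background, limma SE, adjusted p = 0.000659). Hsd11b2, the enzyme that inactivates cortisol and corticosterone and so keeps them off the mineralocorticoid receptor, gave 6.43 log2 on all arrays (1.02 above background, limma, adjusted p = 9.43e-06). The sodium channel ENaC was not called in any of its 3 subunits: Scnn1a gave 4.13 log2, Scnn1b 4.61 and Scnn1g 5.24, with 1 value each throughout. Against the 90th percentile of olfactory receptors Scnn1g was called (limma, adjusted p = 0.000148) and the other ENaC subunits were not.

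Aqp2 is the member most used as a marker of principal cells, and its promoter is printed with that of Atp6v1b1, the intercalated cell pump subunit, because the first gene was called and the second was not while both windows are poor in CpG. Both are from GRCm38.p6, 5′ to 3′ on the plus strand, with each CG in capitals.
Aqp2 (chr15:99578806-99579105): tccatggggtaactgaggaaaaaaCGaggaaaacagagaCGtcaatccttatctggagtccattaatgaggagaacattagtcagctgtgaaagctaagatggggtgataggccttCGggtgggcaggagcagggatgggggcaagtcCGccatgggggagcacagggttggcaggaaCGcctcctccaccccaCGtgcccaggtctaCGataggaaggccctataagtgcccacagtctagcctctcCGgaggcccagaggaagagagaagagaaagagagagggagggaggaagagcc
Atp6v1b1 (chr6:83742767-83743066): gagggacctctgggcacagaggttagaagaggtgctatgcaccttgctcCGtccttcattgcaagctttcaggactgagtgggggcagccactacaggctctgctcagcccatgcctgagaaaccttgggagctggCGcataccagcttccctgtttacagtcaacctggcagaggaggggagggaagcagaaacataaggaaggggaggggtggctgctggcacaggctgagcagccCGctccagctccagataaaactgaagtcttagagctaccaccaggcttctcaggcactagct
The Aqp2 window holds 8 CG pairs, an observed to expected ratio of 0.36, and that of Atp6v1b1 3, a ratio of 0.12.

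Over the members with a promoter, CpG content went with the call, as it did over all genes. The median observed to expected ratio was 0.68 in 24 called members and 0.30 in 29 not called, beside 0.76 and 0.31 over all called and not called genes. In the pump it was 0.77 in the 10 called and 0.13 in the 5 not called genes, though Atp6v1c2, not called, had 0.68. In the other members it was 0.64 in the 14 called and 0.31 in the 24 not called genes. Several of these called genes still had low values: Avpr2 had 0.05, Slc26a10 0.19, Slc4a5 0.20, Kcnj16 0.25, Aqp1 0.28 and Aqp2 0.36. Others were not called with high values: Aqp11 had 0.78, Kcnj10 0.75, Slc26a5 0.71 and Rhcg 0.70.

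**Figure D3:**
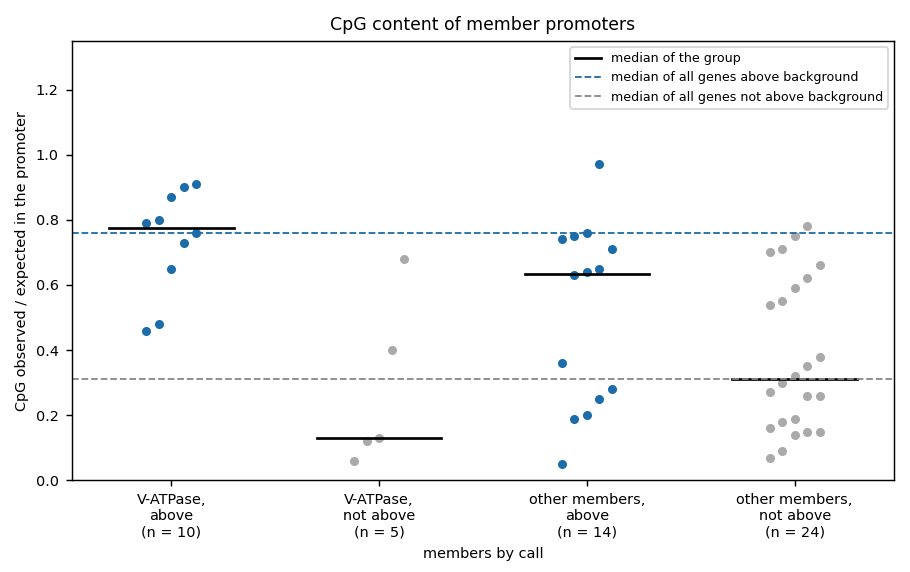
Observed to expected CpG ratio in the promoters of 53 members (points), split into V-ATPase and other members and by call, with group medians (black bars) and the medians of all called (blue dashes) and not called genes (grey dashes). Called V-ATPase genes lie between 0.46 and 0.91, and called members outside the pump spread from 0.05 to 0.97.

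Bicarbonate transporters of the SLC4 family were called in 6 of 9 members (66.7%, against 53.0% of all genes), each by under 0.5 log2. At the 99th percentile 0 of 9 were called, against 35.3% of all genes. Slc4a1, the chloride-bicarbonate exchanger of red cells and of acid-secreting intercalated cells, gave 5.83 log2 on all arrays (limma, adjusted p = 0.000138). Of the 10 erythroid markers, 5 also held 1 value on all arrays (Alas2 gave 5.64 log2), while the globin Hbb-y gave 8.86, 5.48 and 8.52 on arrays 1, 2 and 3 and Hba-x 7.98, 5.88 and 7.39. The part of red cells in the Slc4a1 signal was not tested. Slc4a2, a widely used exchanger, gave 5.77 log2, Slc4a9, an exchanger of base-secreting intercalated cells, 5.74, and the sodium-coupled transporters Slc4a5 and Slc4a8 5.72 and 5.73, each on all arrays. Slc4a3 was called at 5.53, 5.53 and 5.46 log2, but its 2 probe sets disagreed, at 5.79 and 5.23 log2 on average, and the call was lost without each array in turn (limma, adjusted p from 0.0857 to 0.556). Slc4a4, the bicarbonate exit route of the proximal tubule, Slc4a10 and Slc4a11 gave 5.09, 4.65 and 4.97 log2 and were not called.

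SLC26 anion transporters were called in 2 of 11 (18.2%, against 53.0% of all genes). Slc26a2, the sulfate transporter needed for cartilage matrix, gave 6.11, 6.05 and 6.11 log2 (0.67 ± 0.03 above background, limma SE, adjusted p = 0.000106), and Slc26a10 5.74, 5.73 and 5.72. The members known from intercalated cells were not called: Slc26a4, or pendrin, the exchanger of base-secreting cells, gave 4.23 log2, Slc26a7 of acid-secreting cells 3.99, and Slc26a11 5.21, each on all arrays. The other 6, Slc26a1, Slc26a3, Slc26a5, Slc26a6, Slc26a8 and Slc26a9, lay between 3.71 and 5.10 log2.

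Members of the SLC12 family, most of which move chloride with sodium or potassium, were called in 4 of 8 (near the 53.0% of all genes). All 8 had identical values on the 3 arrays. Slc12a2, the widely used sodium-potassium-chloride cotransporter, gave 8.10 log2 (2.68 above background, limma, adjusted p = 9.98e-07). Slc12a9 gave 6.33 log2, and the potassium-chloride cotransporters Slc12a7 and Slc12a4 5.74 and 5.60. The call of Slc12a4 was lost without array 1 or array 3 (limma, adjusted p = 0.183 and 0.169). The cotransporters of nephron tubules were not called: Slc12a1, the target of loop diuretics, gave 3.69 log2 and Slc12a3, the target of thiazides, 5.44, within 0.03 log2 of the level. Slc12a3 was called without array 2 (limma, adjusted p = 0.0325). Neuronal Slc12a5 at 5.25 and Slc12a8 at 5.08 log2 were not called.

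Of the potassium channels, Kcnj16, a basolateral channel subunit, gave 5.63, 5.81 and 5.63 log2 and was called (limma, adjusted p = 0.0029). Its partner Kcnj10 gave 4.81 log2 and Kcnj1, the apical ROMK channel that secretes potassium, 3.81, neither called. The ammonia transporters Rhbg, at 5.33 log2 on all arrays, and Rhcg, at 5.17, 5.31 and 5.17, were not called; both were called at the 90th percentile (limma, adjusted p = 6.08e-05 and 0.0186).

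**Figure D4:**
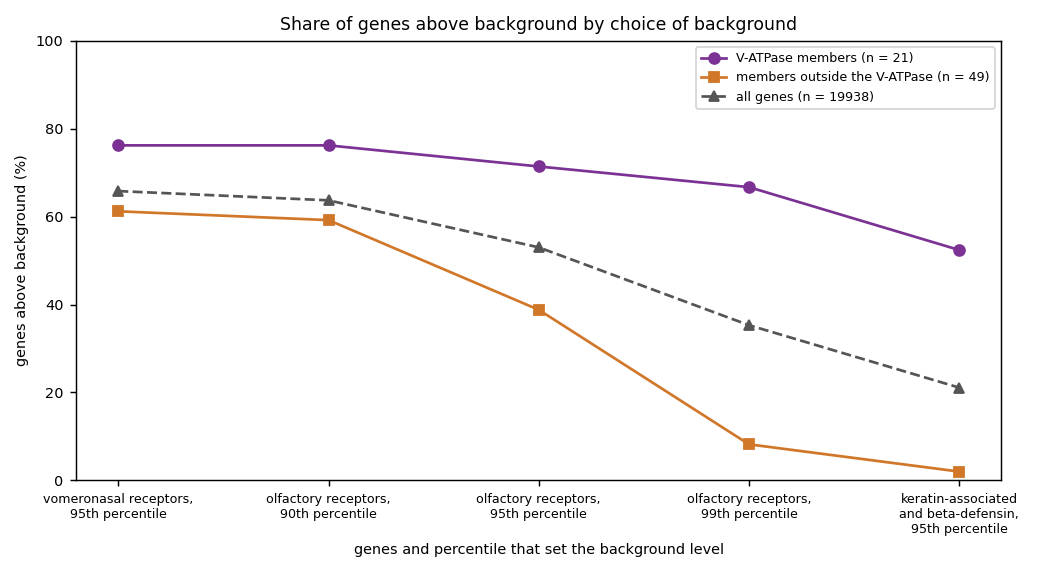
Percent of genes called above background (vertical axis) under 5 choices of the background genes and percentile, for V-ATPase members (circles), members outside the pump (squares) and all genes (triangles). From the most lenient to the strictest choice the V-ATPase share went from 76.2% to 52.4%, that of the other members from 61.2% to 2.0%, and that of all genes from 65.8% to 21.1%; limma's prior also differed between the choices.

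Genes that work with these transporters showed calls of uneven spread. Of 18 measured partners and regulators of principal cells, 11 were called, near the share of all genes (53.0%). At the 99th percentile 7 were, against 35.3% of all genes, without Fxyd4, Fxyd2, Atp1b1 and Tfcp2l1. With keratin-associated protein and beta-defensin genes 3 were, against 21.1%. The mineralocorticoid receptor Nr3c2 (3.86, 3.86 and 3.95 log2), the glucocorticoid receptor Nr3c1 (4.30, 4.28 and 4.30) and the aldosterone-induced kinase Sgk1 (5.19 on all arrays) were not called. The ubiquitin ligases that remove ENaC were, Nedd4 at 11.02 log2 on all arrays and Nedd4l at 6.42, 6.30 and 6.30. So were the ENaC-activating protease genes Prss8 at 6.54 and St14 at 7.25 on all arrays. Tsc22d3 and Atp1b1 were called at 6.33 and 6.52 log2 on average. Also called were Fxyd4 (5.78 log2), Fxyd2 (5.58), Adcy6 (6.51) and Grhl2 (7.87), each with 1 value on all arrays. The transcription factor Tfcp2l1 gave 5.78, 5.60 and 5.60 log2 and was called (limma, adjusted p = 0.0142). Elf5, of the same list, gave 5.00 log2 on all arrays and was not called. The chloride channel Cftr, the urea transporter Slc14a2 and Kcnma1 were not called either, at 3.39, 5.21 and 3.65 log2 on average.

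Of 17 intercalated cell partners, 6 were called, against 53.0% of all genes. At the 99th percentile 4 were, against 35.3% of all genes, without Car2 and Tcirg1. With keratin-associated protein and beta-defensin genes 2 were, against 21.1%. Foxi1, the transcription factor that specifies intercalated cells, gave 4.68 log2 on all arrays and was not called. Called were the pump's accessory subunits Atp6ap1 and Atp6ap2, at 7.27 and 6.61 log2 on all arrays, and its further a subunit gene Tcirg1, at 6.13, 6.13 and 6.07. The others were the carbonic anhydrase Car2 (6.21, 6.40 and 7.77 log2), Hmx2 (6.28) and Tmem213 (7.05, 6.99 and 7.05).

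Regulators of SLC12 cotransport were called in 8 of 10, against 53.0% of all genes. The count was also 8 at the 99th percentile, against 35.3%. With keratin-associated protein and beta-defensin genes it was 5, against 21.1%. The kinases Wnk1 (7.80, 7.69 and 8.01 log2), Wnk3 (7.16, 7.15 and 7.15), Stk39 (8.58 on all arrays) and Oxsr1 (7.75, 7.10 and 6.93) were called. Wnk4, a kinase of the distal tubule, and Klhl3, the adaptor that marks WNK kinases for removal, gave 5.19 and 5.06 log2 on average and were not.

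Between the buds, 2 of 70 members had their highest and lowest array over 1 log2 apart, beside 2.37% of all genes. Each array is 1 bud, so these differences have no replicate and no test. Both are pump genes. Atp6v0d1 was highest on array 1 and lowest on array 2, 1.80 log2 apart (7.69, 5.89 and 6.67), with a mean that was above background (limma, adjusted p = 0.0295). Atp6v1b2 was highest on array 2 and lowest on array 3, 1.19 log2 apart. The next largest ranges were those of Atp6v1f (10.01, 9.09 and 9.07 log2, highest on array 1), Aqp11 (highest on array 2) and Atp6v1e1 (0.60 log2, highest on array 2). Atp6v1b2 and Atp6v1e1 had the same order of arrays (2, 1, 3 from the highest), and no single order held for all 5 genes. The endothelial and erythroid means were lowest on array 2, as was Atp6v0d1; their part in its range was not tested. In the SD, Atp6v0d1 reached 0.90 log2, against 0.02 in Atp6v1h (7.80, 7.79 and 7.84 log2).

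Measured spread was rarer outside the pump. Of 15 called V-ATPase genes 3 held an identical value on all arrays, against 13 of 19 called members outside the pump and 42.1% of all called genes. Of the 36 members not called 32 did, against 62.6% of all genes not called.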

How the data were processed

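The 3 samples were measured on Affymetrix arrays, and the deposited file holds log2 values, 1 per probe set and array. The base was inferred from the range of the values. Per the submitters' processing notes, the authors used Affymetrix Expression Console. Its version, background correction, normalization and the build are not stated in the labels or the file, and values were kept as deposited. Array medians were 5.47, 5.50 and 5.48 log2. The platform annotation gave 1 symbol to 21789 of 35557 probe sets, several to 1621 and none to 12147; probe sets of 1 gene were averaged. All 70 members had a gene ID in the RefSeq table (GRCm38.p6), used for names, neighbours and promoters.

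Signals minus each array's background level were fitted over all genes with limma 3.58.1 (R 4.3.3), tested on simulated data first. In the simulation every gene varied between arrays and every null gene lay below the level. It therefore cannot speak to calls of genes with identical values or of genes at the level. Identical means a range of at most 1e-06 log2. Members were set beside all genes by counts and medians, with no test of a list. The alternatives concerned the background, averaging, normalization, low values, identical values and single arrays. Named genes were all members, the 3 partner lists and the first 4 measured genes of marker lists. The erythroid genes Gata1 and Tal1 were named outside that choice. The members and lists were chosen with earlier results of these data known. With 3 arrays, precision is limited by their number. A few genes named by the rule are not reported here.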

Additional observations from a re-analysis of the deposited data

How the results depend on the processing

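The choice of background moved the counts most. Over all genes 10567 were called, 7034 at the 99th percentile, 4210 against keratin-associated protein and beta-defensin genes, and 6078 (of 9627 tested) with identical genes left out; over members 34, 18, 12 and 17 (of 22 tested). Members outside the pump gave 19, and 29 at the 90th percentile, 4 at the 99th, 30 with vomeronasal receptors, 1 with keratin-associated proteins and beta-defensins and 5 (of 8 tested) with identical genes left out. The V-ATPase count of 15 stayed within 11 and 16. An SD floor for identical genes, chosen after seeing the data, left 32 members, without Aqp1 and Slc4a3. Leaving out single arrays gave 9666 to 10526 genes, 31 to 34 members, 15 V-ATPase genes and 16 to 19 others, and 1 member with a range over 1 log2 in place of 2 (Atp6v0d1 without array 3, Atp6v1b2 without array 1, and Atp6v0d1 without array 2); at 0.5 log2 there were 5. Without array 2 and at the 90th percentile the prior was weak (0.91 and 0.88 degrees of freedom, 1.71 in the main analysis), and without array 1 or 3 and with vomeronasal receptors the spread was pooled over all genes, so these fits and their counts are not like for like. No paired analysis was possible because there is 1 group.

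A shifted level turns the sign of genes near it. Mean signal minus level at the 99th percentile became −0.55 log2 for Aqp1, −0.31 for Aqp3, −0.39 for Aqp5, −0.23 for Slc4a1, −0.29 for Slc4a2, −0.56 for Slc4a3, −0.34 for Slc4a5, −0.34 for Slc4a8, −0.32 for Slc4a9, −0.34 for Slc26a10, −0.46 for Slc12a4, −0.32 for Slc12a7, −0.38 for Kcnj16 and −0.21 for Avpr2. With keratin-associated proteins and beta-defensins it became −1.35 for Aqp1, −0.60 for Aqp2, −1.11 for Aqp3, −1.19 for Aqp5, −0.23 for Atp6v0a2, −0.11 for Atp6v0d1, −0.031 for Atp6v0e2, −0.66 for Atp6v1g2, −1.03 for Slc4a1, −1.09 for Slc4a2, −1.36 for Slc4a3, −1.14 for Slc4a5, −1.14 for Slc4a8, −1.12 for Slc4a9, −0.77 for Slc26a2, −1.14 for Slc26a10, −1.27 for Slc12a4, −1.12 for Slc12a7, −0.54 for Slc12a9, −1.18 for Kcnj16, −1.02 for Avpr2 and −0.43 for Hsd11b2. Below the main level, but called under both the 90th percentile and vomeronasal receptors, were Aqp12 (0.10 and 0.32 log2), Scnn1g (0.21 and 0.43), Atp6v1e2 (0.046 and 0.27), Slc4a4 (0.053 and 0.27), Slc26a6 (0.065 and 0.28), Slc26a11 (0.17 and 0.39), Slc12a5 (0.21 and 0.43), Slc12a8 (0.045 and 0.27), Rhbg (0.29 and 0.51) and Rhcg (0.18 and 0.40).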

Other observations

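Different member genes shared exact values. Aqp4 and Aqp6 held the same number on every array (4.26 log2), as did Aqp9 and Scnn1a (4.13), Atp6v0a4 and Slc4a11 (4.97) and Slc12a7 and Slc4a9 (5.74), compared to 5 decimals. On array 1, 48 of 74 member probe sets shared their value with another probe set, against 52.6% of all probe sets, which held 19073 distinct values. Among all probe sets identical on the 3 arrays 87.2% shared their value with another, and among the rest 28.7%. The source of these repeats was not tested, and a level given to 2 decimals for such a gene may be coarser than it looks.

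Where 2 arrays held the same value and the third differed, array 2 was the odd array for 7 members, among them Aqp3, Aqp11, Avpr2, Kcnj16, Rhcg and Atp6v1b1, array 3 for 3 members and array 1 for 1. Over all genes array 2 was the odd array for 2147 genes, array 1 for 1805 and array 3 for 1765. Hsd11b2 and Atp6v0d1, both called, are next to each other on the chromosome in the RefSeq table; Hsd11b2 was identical on the 3 arrays and Atp6v0d1 had the largest range of all members.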
